A study of Rattus norvegicus with 9 samples.

Results

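The genes described here are 9 members of the interleukin-6 and interleukin-10 cytokine families and their receptors: the ligands Il6, Lif, Osm, Il10 and Il19, and the receptor chains Il6r, Il6st, Il10ra and Il10rb. They were taken by symbol, 1 row each, from a table of 20442 genes, by a rule that uses no measured value. The choice of these members, and of the gene lists used further below, was made with earlier results of these data known. The table gives FPKM (read fragments counted per kilobase of transcript and corrected for library depth) for 9 cultures of wild-type primary rat dendritic cells grown from bone marrow with 10% serum and with the growth factors GM-CSF and IL-4, each at 20 ng/mL. Dendritic cells are the antigen-presenting cells that start T cell responses, and lipopolysaccharide (LPS) is the bacterial endotoxin that they sense through Tlr4. The 3 groups of 3 cultures were Control, labelled as untreated, LPS, and LPS+EVs, where LPS was combined with vesicles shed by ASCs (extracellular vesicles, EVs).

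The treatment note, which is the same for every culture, gives LPS at 1 µg/mL, a further agent at 50 ng/mL that it does not name, and 24 h. Which groups received that agent, and the dose of the EVs, are not known here, so against Control the contributions of LPS and of the agent cannot be told apart. If LPS and LPS+EVs differed in the agent, its contribution and that of the EVs cannot be told apart either. Strain, sex and age of the rats are not given in the sources used here. The labels call the replicates biological and do not say whether they came from separate animals. Each p-value therefore measures the spread between these cultures, which may be technical.

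Cytokines of the interleukin-6 family signal through the shared receptor chain gp130, encoded by Il6st. IL-6 binds first to its own receptor, encoded by Il6r, on the cell or shed from it, whereas LIF and oncostatin M pair gp130 with Lifr or Osmr. IL-10 binds a receptor built from Il10ra and Il10rb and acts on dendritic cells and macrophages to lower their output of inflammatory cytokines, while IL-19 uses Il20ra and Il20rb. Both families activate the transcription factor STAT3 through Janus kinases, and SOCS3 restrains gp130 but not the IL-10 receptor.

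Promoter sequences were available for 6 of the 9 members (Il6, Il6r, Il6st, Il19, Il10ra and Il10rb) in RefSeq on build GRCr8. The expression table, made on mRatBN7.2, gives no coordinates. The 250 bases before the annotated start are printed for the ligands Il6 and Il19 because they were the only members of the 6 with a match to any of 5 motifs searched on both strands, and capitals mark the matches. Il6 lies at chr4:5894576-5894825 and Il19 at chr13:44958715-44958964, both on the minus strand, written 5′ to 3′ as transcribed.
Il6: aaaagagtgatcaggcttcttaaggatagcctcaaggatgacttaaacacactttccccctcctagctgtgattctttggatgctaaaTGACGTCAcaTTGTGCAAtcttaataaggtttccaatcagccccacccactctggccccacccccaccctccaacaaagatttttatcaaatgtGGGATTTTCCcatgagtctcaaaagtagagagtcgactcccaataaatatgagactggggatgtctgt
Il19: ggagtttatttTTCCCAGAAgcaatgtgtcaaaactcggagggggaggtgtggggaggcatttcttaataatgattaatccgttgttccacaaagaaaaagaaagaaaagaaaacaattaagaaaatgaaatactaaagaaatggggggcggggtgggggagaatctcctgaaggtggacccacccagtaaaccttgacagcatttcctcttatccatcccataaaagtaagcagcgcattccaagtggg
In Il6 the capitals mark a cyclic AMP response element (TGACGTCA) 162 to 155 bases before the start, a C/EBP motif (TTGCNNAA, read on the opposite strand) at 152 to 145, and a match to the NF-kB consensus at 68 to 59. These 3 matches do not overlap. In Il19 they mark a STAT motif (TTCNNNGAA) at 239 to 231. Of 33469 RefSeq promoters cut to the same length, 1.59% held the response element, 9.22% the C/EBP motif, 6.33% the NF-kB consensus, 7.67% the STAT motif and 6.34% the AP-1 motif (TGANTCA), which neither printed sequence holds. A match is a description of letters, and binding was not measured.

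All libraries were deep, with 32148519 to 39407116 reads assigned to genes, as recovered from the steps of the FPKM values. The libraries numbered 2 stood apart from those numbered 1 and 3 in each group. Their summed dendritic cell markers (16 of 16 genes in the table, led by Cd74) were 8421 to 9981 FPKM against 1383 to 3658 in the other libraries. Their summed stromal markers (14 of 14 in the table, led by Fn1, with Dcn and Lum among them) were 195 to 648 against 756 to 1622. Among the dendritic cell markers Cd74, the RT1 genes, Ciita, Zbtb46 and Batf3 were highest in the library numbered 2 of every group. Other markers on that list were not. In LPS replicates 1, 2 and 3, Itgax was at 37, 36.9 and 42.6 FPKM and Ccr7 at 147, 142 and 417. Of the markers of conventional dendritic cells, Itgax was present at 29.8 to 52 FPKM and Zbtb46 at 1.41 to 3.36. Irf4 was at 9.41 to 32.7 and Batf3 at 10.1 to 37.9. Flt3 was at most 0.108, Xcr1 at most 0.0204 and Clec9a at most 0.437. Macrophage marker sums, led by Lyz2, were 6772 to 8669 FPKM in Control, 3690 to 7073 in LPS and 4222 to 6836 in LPS+EVs. The macrophage markers went both ways. Of 9 in the fit, 2 rose and 5 fell in LPS against Control, beside 12.3% and 28.7% of all fitted genes. Mean Cd68 was 430, 542 and 648 FPKM in Control, LPS and LPS+EVs, and mean Lyz2 6515, 3449 and 3623. Neutrophil marker sums were 37.7 to 268, 2.88 to 7.33 and 5.14 to 18.4. In bulk RNA, fewer cells of a type and less RNA per cell cannot be told apart.

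LPS was accompanied by higher transcript levels of the gp130 ligands Il6, Lif and Osm, of Il10 and of both IL-10 receptor chains, and by a lower level of Il6r, while Il6st gave no call. Of the 8 members in the fit, 6 rose and 1 fell in LPS against Control (limma on log2(FPKM + 1), Benjamini-Hochberg adjusted p under 0.05). Of all 11141 genes fitted, 41% passed, 12.3% as higher and 28.7% as lower. Il10 entered the fit only through its levels in the treated libraries, and Il19 was below the limit of 1 FPKM in at least 3 libraries, so the 8 are not a count of the whole family. With the libraries numbered 1 and 3 alone, a choice made after seeing the data, 7 rose and 1 fell in LPS, and 6 rose and 0 fell in LPS+EVs, each against Control. In that setting 4607 and 4978 of 10691 genes passed. Between LPS+EVs and LPS none of the 8 passed, and none of the 11141 genes did (0% called). In that comparison 295 genes (2.65%) had an unadjusted p under 0.05, none of them a member, and limma-voom on recovered reads also called 0 genes.

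**Figure D1:**
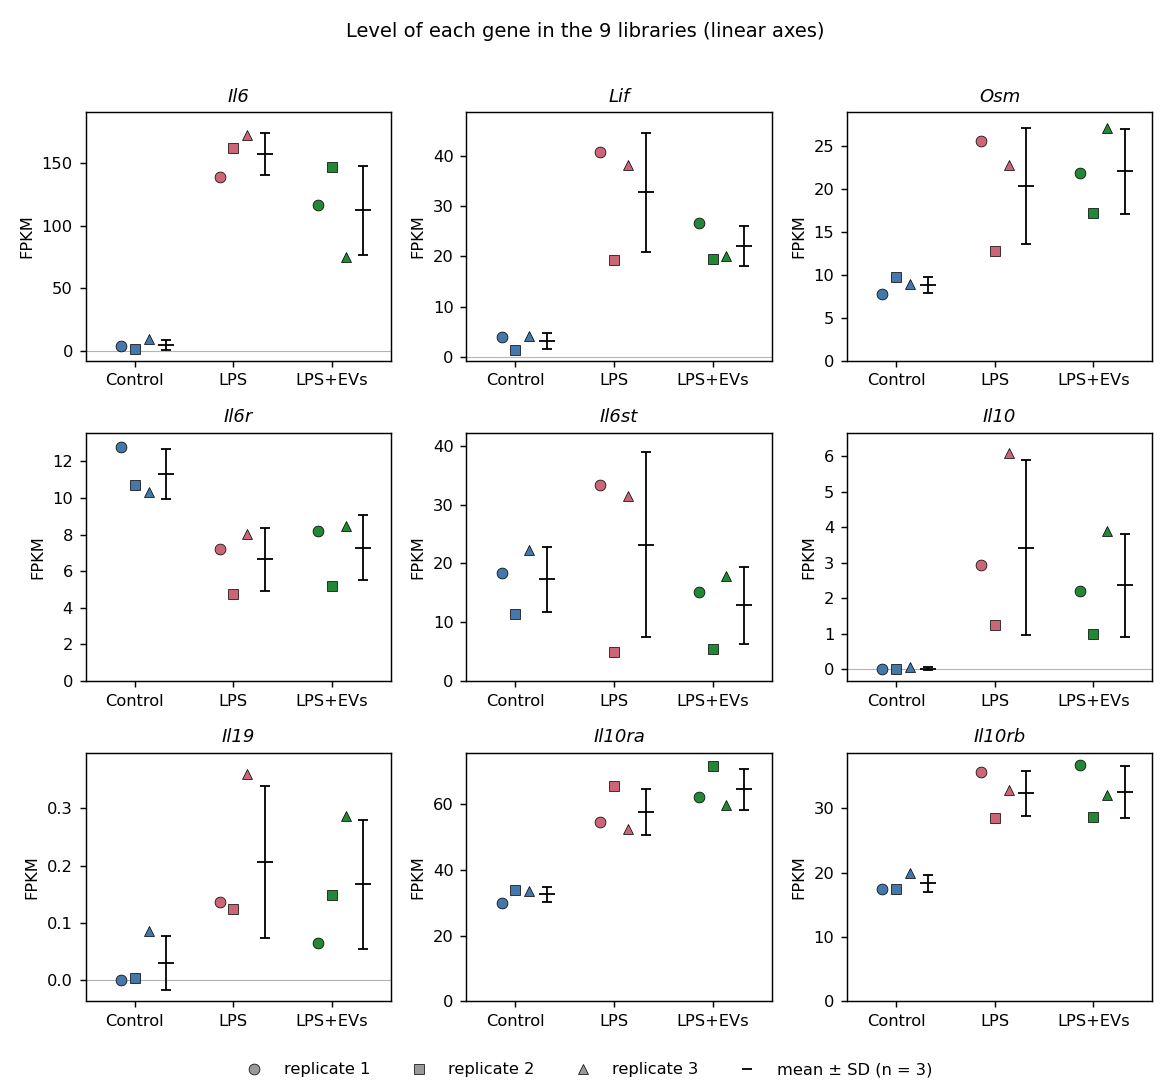
FPKM of each of the 9 members in every library, on an axis of its own per gene and on a linear scale, with a marker for each of the 3 replicates of Control, LPS and LPS+EVs and, beside them, the group mean with bars of 1 SD. Il6, Lif and Il10 sit far above Control in all 6 treated libraries, Il6r sits below it, and the Il6st values of the libraries numbered 2 lie under those of the other libraries of their group.

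Il6, the cytokine that names the family, had the largest difference of the fitted members on the log2(FPKM + 1) scale, though not with limma-voom on recovered reads, where that of Il10 was larger (8.08 against 5.40 in LPS). It was at 4.15, 1.16 and 9.19 FPKM in the Control replicates 1, 2 and 3, at 139, 162 and 172 in LPS, and at 116, 147 and 75.1 in LPS+EVs. Every treated library lay above every Control library, and the LPS+EVs range overlapped that of LPS. Mean levels were 4.83 ± 4.06, 157 ± 17 and 112 ± 35.9 FPKM (SD, n = 3). Il6 rose 32.6-fold in the mean under LPS, a log2 difference of 5.03 (SE 0.49, 95% interval 3.91 to 6.14, adjusted p = 0.000132 from limma), and by 4.50 in LPS+EVs against Control (adjusted p = 0.000234). From an Il6 mean above only 29.3% of the fitted genes in Control, it came to stand above 96% of them in LPS and 94.3% in LPS+EVs.

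Lif, leukaemia inhibitory factor, gave 3.91, 1.45 and 4.22 FPKM in Control, 40.7, 19.2 and 38.2 in LPS, and 26.6, 19.5 and 20 in LPS+EVs. Both treated groups cleared Control without overlap, and the library numbered 2 was the lowest of its group each time. Lif rose by 3.01 on the log2 scale in LPS (SE 0.35, adjusted p = 0.000357 from limma), from a mean of 3.19 ± 1.52 to 32.7 ± 11.8 FPKM (SD, n = 3), and by 2.52 in LPS+EVs (adjusted p = 0.000868).

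Osm, oncostatin M, was already present in Control at 7.76, 9.68 and 8.93 FPKM, and reached 25.5, 12.7 and 22.8 in LPS and 21.8, 17.2 and 27 in LPS+EVs. Its fold was the lowest of Il6, Lif and Osm, a difference between genes that was not tested: 2.31-fold in LPS (log2 difference 1.07, SE 0.26, adjusted p = 0.0111 from limma) and 2.5-fold in LPS+EVs (1.22, adjusted p = 0.00582). No Control value reached a treated value. Osm lies next to Lif in the RefSeq gene order.

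Il10, the cytokine that restrains dendritic cell activation, was near the detection limit without LPS. Control libraries were at 0, 0 and 0.0723 FPKM, equal to 0, 0 and 10 reads, and 3 reads, the limit that a count of 0 allows, correspond to 0.0216 and 0.0258 FPKM in the libraries at 0. LPS libraries were at 2.94, 1.26 and 6.09 FPKM (400, 163 and 828 reads) and LPS+EVs libraries at 2.22, 0.99 and 3.89 (303, 127 and 441 reads). On the log2(FPKM + 1) scale, which understates changes of low genes, Il10 rose by 1.96 in LPS (SE 0.43, 95% interval 0.99 to 2.93, adjusted p = 0.00727 from limma) and by 1.62 in LPS+EVs (adjusted p = 0.015). The difference of 8.08 for Il10 with limma-voom depends on the small count which that method adds to each count. Within each group the library numbered 2 was the lowest or tied for the lowest, and the one numbered 3 the highest.

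Il19, another member of the IL-10 family, stayed low everywhere: 0, 0.00374 and 0.0848 FPKM in Control, 0.137, 0.124 and 0.361 in LPS, and 0.0638, 0.149 and 0.287 in LPS+EVs. These values rest on 0 to 27, 37 to 113 and 20 to 75 reads. The LPS libraries did not overlap Control (exact permutation test of log2(FPKM + 1), two-sided, p = 0.1, the smallest that 3 against 3 allows), and the LPS+EVs libraries did (exact permutation p = 0.2). Il10, Il19, Il20 and Il24 stand in a row in the RefSeq gene order. Il20 was at 0 in every Control library and in the libraries numbered 2, and between 0.0876 and 0.22 FPKM in the other 4, and Il24 was at 0 in every library except LPS replicate 2, at 0.0192.

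Il6r, which encodes the IL-6 binding chain, went the other way from its ligand. It was at 12.8, 10.7 and 10.3 FPKM in Control, 7.21, 4.73 and 8.04 in LPS, and 8.18, 5.21 and 8.48 in LPS+EVs. All treated libraries lay below all Control libraries. Il6r fell by 0.70 on the log2 scale in LPS (SE 0.22, 95% interval -1.21 to -0.19, adjusted p = 0.035 from limma), to 0.592 of the Control mean, against a median over all fitted genes of -0.19. This call ended without any of Control replicates 1, 2 and 3 (adjusted p = 0.118, 0.0733 and 0.0669), without LPS replicate 1 or 2 (0.0579 and 0.0828), and with no filter on low values (0.0685), over a range of 0.00769 to 0.118 in all settings. In LPS+EVs against Control the log2 difference was -0.58 (95% interval -1.09 to -0.08, adjusted p = 0.0613). That value passed with a replicate block (adjusted p = 0.0154), with the 6 compared libraries alone (0.0414), without LPS replicate 2 (0.0274) and with the block and median-of-ratios scaling together (-0.38, 0.049), over a range of 0.0154 to 0.19. Neutrophil marker sums also differed between Control and treated libraries, while macrophage marker sums overlapped and their genes went both ways, as given above. The part of either cell type in the Il6r difference was not tested.

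Il6st, which encodes gp130, varied more between replicates than between groups. It was at 18.4, 11.3 and 22.3 FPKM in Control, 33.3, 4.95 and 31.4 in LPS, and 15.2, 5.46 and 17.9 in LPS+EVs. The libraries numbered 2 were the lowest of each group, and the 3 groups overlapped. The log2 difference between LPS and Control was 0.08 (SE 0.68, 95% interval -1.47 to 1.64, adjusted p = 0.934 from limma), and that between LPS+EVs and Control -0.50 (adjusted p = 0.586). With the libraries numbered 1 and 3 alone, Il6st differed by 0.65 in LPS against Control (adjusted p = 0.0122). Over all settings that adjusted p ranged from 0.0122 to 0.979, and the difference changed sign when Control replicate 2, LPS replicate 1 or LPS replicate 3 was left out (-0.18, -0.35 and -0.31).

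The stromal genes Dcn and Lum, which encode small proteoglycans of connective tissue, separated the libraries in the same way as Il6st. Dcn was at 5.36, 4.53 and 4.77 FPKM in the libraries numbered 2 and at 32.5 to 77.5 in the others, and Lum at 6.46 to 10.1 and at 40.3 to 96.9. Not every stromal marker did so. In Control replicates 1, 2 and 3, Postn was at 0.797, 1.35 and 8.93 FPKM and Acta2 at 4.93, 1.8 and 1.72. Osmr, the partner of gp130 in the oncostatin M receptor, gave 5.33, 1.67 and 7.3 FPKM in Control, 16.2, 0.654 and 12.3 in LPS, and 7.27, 0.807 and 7.24 in LPS+EVs (log2 difference in LPS against Control 0.48, SE 0.95, adjusted p = 0.712). The part of stromal cells in the Il6st and Osmr levels was not tested.

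**Figure D2:**
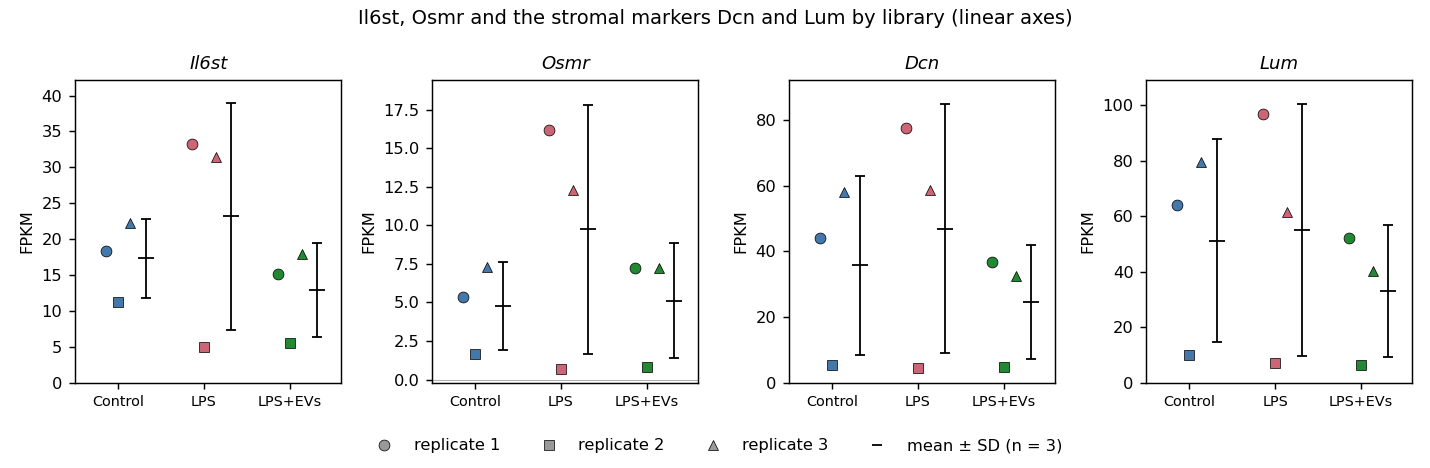
FPKM of Il6st, Osmr and the stromal markers Dcn and Lum in every library, on linear axes, with a marker shape for each replicate number in Control, LPS and LPS+EVs and bars for the group mean ± 1 SD. For each of the 4 genes the square, replicate 2, is the lowest of its group, with Il6st at 11.3, 4.95 and 5.46 FPKM.

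Both chains of the IL-10 receptor rose. Il10ra, the chain specific to IL-10, was at 29.8, 34 and 33.7 FPKM in Control, 54.6, 65.5 and 52.3 in LPS, and 62.3, 71.6 and 59.7 in LPS+EVs. Its spread within a group was narrow beside the step from Control, a 1.77-fold rise in LPS (log2 difference 0.80, SE 0.12, adjusted p = 0.00144 from limma) and a 1.99-fold rise in LPS+EVs (0.97, adjusted p = 0.000577). Il10rb, the chain shared with interleukin-22 and the lambda interferons, was at 17.5, 17.5 and 19.9 FPKM in Control, 35.6, 28.5 and 32.8 in LPS, and 36.7, 28.6 and 32.1 in LPS+EVs. Il10rb rose by 0.78 in LPS (SE 0.13, adjusted p = 0.0021 from limma) and by 0.79 in LPS+EVs (adjusted p = 0.00197), with no overlap with Control. It lies between Ifnar2 and Ifnar1, which encode the type I interferon receptor.

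In LPS+EVs against Control, which shares its Control libraries with the comparison above, 6 of the 8 members passed as higher and 0 as lower, beside 44.3% of all fitted genes in either direction, 13.5% higher and 30.8% lower. Groups did not overlap for 7 of the 8 in either comparison with Control, where 55.1% (LPS) and 60.2% (LPS+EVs) of all genes did not. The table's FPKM scaling set the median of all genes at -0.19 in both comparisons. Median-of-ratios scaling moved it to 0.000588 for LPS and 0.000632 for LPS+EVs. With that scaling the share of calls that were higher went from 29.9% to 45.1% for LPS and from 30.5% to 45.6% for LPS+EVs, and the members kept their directions, with Il6 at 5.21, Il6r at -0.51 and Il10ra at 1.01 in LPS against Control.

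**Figure D3:**
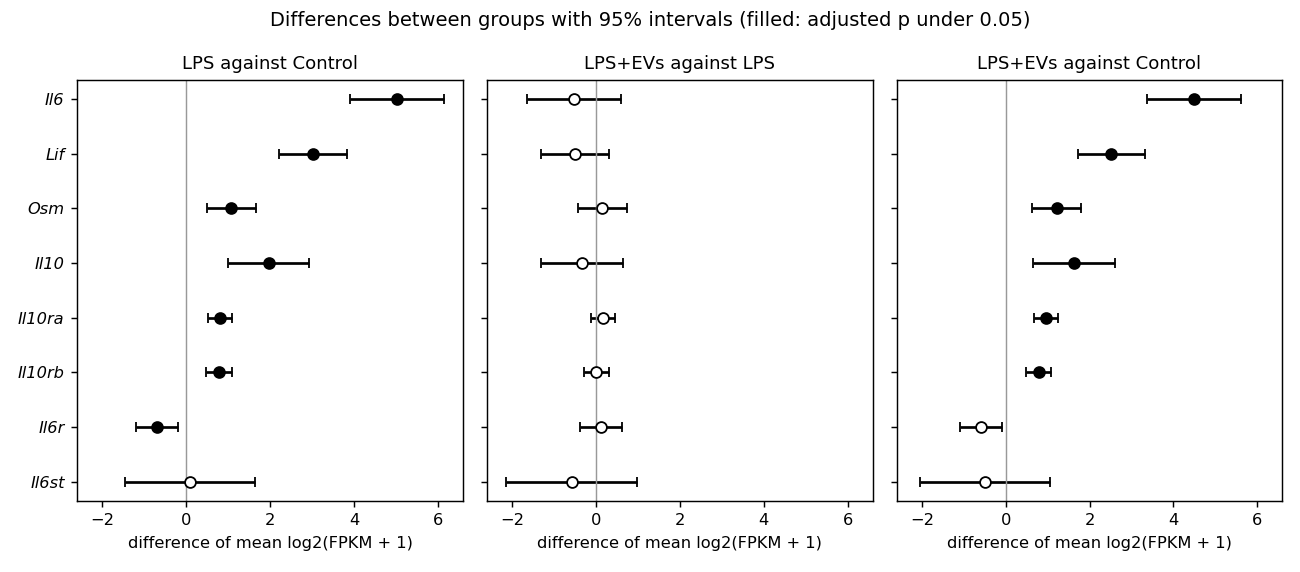
Log2 differences on the log2(FPKM + 1) scale with 95% intervals from limma for the 8 fitted members in the 3 comparisons, with a line at 0 and filled points where the adjusted p was under 0.05. In LPS+EVs against LPS every interval spans 0, and the widest is that of Il6st, -2.14 to 0.98.

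The EV comparison asks what vesicles added to LPS change, provided that LPS and LPS+EVs did not differ in the unnamed agent. The members give it as intervals. Il6 differed by -0.53 (SE 0.49, 95% interval -1.65 to 0.59) between LPS+EVs and LPS, Lif by -0.49 (-1.30 to 0.32), Osm by 0.14 (-0.44 to 0.73) and Il10 by -0.34 (-1.31 to 0.64). Among the receptor chains Il6r differed by 0.11 (-0.39 to 0.62), Il6st by -0.58 (-2.14 to 0.98), Il10ra by 0.17 (-0.12 to 0.45) and Il10rb by 0.01 (-0.29 to 0.31). No group pair was free of overlap (6.62% of all fitted genes had none). Each member had an adjusted p of 0.999 from limma, and over all settings run the smallest for any member was 0.242, for Il6st. Il19 differed by -0.05 (exact permutation p = 0.7). These intervals include 0 and, for Il6, Lif, Il6st and Il10, differences below -1, so equal levels are not shown.

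Libraries with the same number deviated together across groups, so each LPS+EVs library can be set beside the LPS library of its number. Il6 stood at 83.5%, 90.4% and 43.7% of LPS in pairs 1, 2 and 3, and Il10 at 75.8%, 78.6% and 63.8%. Il10ra stood at 114%, 109% and 114%, and Il6r was higher in each pair by 0.16, 0.12 and 0.07 on the log2 scale. These 4 of the 8 fitted members moved the same way in all 3 pairs, as 33.6% of all fitted genes did (16.7% higher and 16.8% lower). Lif (-0.59, 0.02 and -0.90), Osm (-0.22, 0.41 and 0.24), Il6st (-1.08, 0.12 and -0.78) and Il10rb (0.04, 0.00 and -0.03) did not. With the replicate block 0 genes passed in this comparison. The largest drop of Il6 and of Il10 was in pair 3.

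FPKM is per length, but the annotation that set the lengths is not given. Ranks and ratios between genes, here and above, depend on it. Ranked by FPKM, the receptor chains stood above the ligands in Control. Il10ra stood first, followed by Il10rb, Il6st and Il6r, then Osm, Il6 and Lif, with Il19 and Il10 last. The ranges of neighbours overlapped from Il10rb to Il6st, Il6st to Il6r, Osm to Il6, Il6 to Lif and Il19 to Il10. In LPS, Il6 stood first and Il10ra second without overlap, Lif, Il10rb, Il6st and Osm followed with overlapping ranges, and Il6r, Il10 and Il19 came last. The ratio of Il6 to Il10 FPKM in the same library was 47.2, 129 and 28.2 in LPS and 52, 148 and 19.3 in LPS+EVs, highest in the library numbered 2 each time. The ratio of Il6st to Il6r FPKM was 1.43, 1.06 and 2.17 in Control, 4.61, 1.05 and 3.91 in LPS and 1.86, 1.05 and 2.11 in LPS+EVs, so that the libraries numbered 2 stayed close to equal levels.

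Members varied together in part. Over the 9 libraries, which share the step from Control to LPS, Il6 and Lif correlated at 0.97 on the log2(FPKM + 1) scale, Osm and Il10 at 0.93, and Lif and Il10rb at 0.96. Il6 and Il6r correlated at -0.80, and Il6 and Il6st at -0.07. The genes with the pattern most like a member, by Pearson correlation over these 9 libraries, were Elk3, Wasl and Sdc4 for Il6 (0.988 each), and Itgav (0.995), Arg1 (0.994) and Csf3 (0.990) for Lif. For Il10 they were Sfrp2 (0.994), LOC108352723 and Ppbp (0.992 each), for Il10ra Nectin2 (0.996), Parp3 (0.996) and Cd274 (0.991), and for Il10rb Lig4 (0.991), Fmnl2 (0.989) and Ubap1 (0.988). Osm was closest to Rapgef1 (0.991), Rnf10 (0.985) and Zmiz1 (0.980), Il6r to Slc5a6 (0.987), Cnnm3 (0.987) and Setdb1 (0.985), and Il6st to Wdr35 (0.980), Arsk (0.979) and Pex11a (0.978).

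Among the 5 other cytokines of the IL-6 family in the fit, Ebi3, the shared subunit of interleukins 27 and 35, had the largest difference on the log2(FPKM + 1) scale. Its mean went from 10.4 FPKM in Control to 193 in LPS and 230 in LPS+EVs (log2 differences from Control 4.10, SE 0.25, adjusted p = 1.14e-05, and 4.29, adjusted p = 8.76e-06, from limma). Clcf1, a gp130 ligand that acts through the receptor of ciliary neurotrophic factor, rose from 3.34 to 9.6 and 8.08 FPKM (1.27, adjusted p = 0.000479, and 1.06, adjusted p = 0.00114). These were the 2 of 5 tested that rose in LPS, beside 12.3% of all fitted genes. The same number rose in LPS+EVs (13.5% of all fitted genes), where Cntf, ciliary neurotrophic factor, fell by 0.70 (adjusted p = 0.0115, and 0.0556 without Control replicate 1). Il11 was too low for the fit, at 0.0835, 0 and 0.102 FPKM in Control, 2.89, 0.0896 and 2.51 in LPS, and 0.606, 0.0201 and 0.5 in LPS+EVs, again lowest in the libraries numbered 2.

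Of the other receptor chains of the IL-6 family, 2 of 6 were high enough to test (Osmr and Il11ra1) and none passed. Among those of the IL-10 family, Il20rb, a chain of the IL-19 receptor, was at 9.31, 0.992 and 3.18 FPKM in Control, 22, 5.35 and 15.2 in LPS, and 30.3, 6.8 and 28.9 in LPS+EVs. It was lowest in the libraries numbered 2 and overlapped between groups. Its log2 difference of 2.14 in LPS+EVs against Control had an adjusted p of 0.0469. That call ended without Control replicate 2 or 3 (0.151 and 0.11), LPS replicate 1 or 3 (0.0527 and 0.0599) or LPS+EVs replicate 1 or 3 (0.14 and 0.129), with no filter (0.102) and with limma-voom (0.0714), over a range of 0.000104 to 0.151.

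Most of the signalling kinases and STATs gave no call. Stat3, the main transcription factor downstream of both families, had means of 74.9, 80 and 83.2 FPKM in Control, LPS and LPS+EVs (log2 difference in LPS 0.08, 95% interval -0.29 to 0.45, adjusted p = 0.723 from limma). Of 13 genes of JAK-STAT signal transduction, 2 rose and 1 fell in LPS, and the list's median was 0.08. For this list and those that follow, the share of all fitted genes called in LPS against Control was 41%, with 12.3% higher and 28.7% lower. In LPS+EVs against Control it was 44.3%, with 13.5% higher and 30.8% lower. Gab2, an adaptor that binds the phosphatase SHP2, rose by 0.68 (adjusted p = 0.00246) and Shc1, an adaptor towards Ras, fell by 0.81 (adjusted p = 0.000697). Stat5b, which acts downstream of GM-CSF, rose by 0.53 (adjusted p = 0.0324), a call that ended without Control replicate 1 or 3 (0.113 and 0.0867), without LPS replicate 3 (0.0903) and with no filter (0.0533).

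Against Control, 1 of these 13 rose in LPS+EVs (Gab2, by 0.91, adjusted p = 0.00062) and 3 fell: Shc1 by 0.75 (adjusted p = 0.00104), Jak1 by 0.28 (0.037) and Ptpn11, which encodes SHP2, by 0.49 (0.0463). Jak1 and Ptpn11 no longer passed with median-of-ratios scaling (adjusted p = 0.74 and 0.115), nor without any of 7 libraries, all but LPS replicates 2 and 3, left out in turn (0.0545 to 0.131 for Jak1 and 0.0506 to 0.126 for Ptpn11). With median-of-ratios or TMM scaling 2 of the 13 rose and 1 fell.

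Negative regulators included 3 that rose and 1 that fell of 15 in LPS, with a median of -0.13, beside 41% of all fitted genes called. With median-of-ratios or TMM scaling 5 rose and 1 fell. Socs3, the feedback inhibitor of gp130, rose from a mean of 42.1 FPKM to 129 in LPS and 133 in LPS+EVs (log2 differences 1.64, SE 0.28, adjusted p = 0.00209, and 1.65, adjusted p = 0.00197, from limma). Ptpn1, a phosphatase that acts on JAK2 and TYK2, rose by 0.78 (adjusted p = 0.0014). Ptpn6, which encodes the phosphatase SHP1, fell from 142 to 37.2 and 47.8 FPKM (-1.90, SE 0.15, adjusted p = 4.54e-05, and -1.55, adjusted p = 0.00013). Socs1, an inhibitor of Janus kinases, rose by 0.84 (adjusted p = 0.0231), a call that ended without Control replicate 1 or 3 (0.084 and 0.0758) or LPS replicate 2 (0.0594). In LPS+EVs 4 rose and 1 fell, with Pias4 at 0.57 (adjusted p = 0.0165, and 0.0647, 0.0582 and 0.0548 without Control replicate 1, Control replicate 3 or LPS+EVs replicate 2).

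Of the genes known to respond to STAT3 or IL-10, 13 of 22 rose and 3 fell in LPS, with a median of 0.93 beside -0.19 for all fitted genes. In LPS+EVs 15 rose and 3 fell. With median-of-ratios or TMM scaling 16 rose and 3 fell in LPS, and 17 rose and 3 fell in LPS+EVs. With the replicate block 17 rose and 3 fell in LPS, and 15 rose and 3 fell in LPS+EVs. Of all fitted genes, 12.3% passed as higher in LPS and 13.5% in LPS+EVs. Arg1, the arginine-degrading enzyme of alternatively activated macrophages, went from 80.9 to 637 and 513 FPKM (2.97 in LPS, adjusted p = 0.000482 from limma), and Hmox1, the haem-degrading enzyme, from 139 to 831 and 735 (2.67, adjusted p = 0.000852). The survival factor Mcl1 rose by 0.83 (adjusted p = 0.000973) and Il1rn, the interleukin-1 receptor antagonist, by 2.07 (adjusted p = 0.00175). Myc, a growth regulator, fell from 59.9 to 6.31 and 7.63 FPKM (-3.07, adjusted p = 1.78e-05), and Cd163, a scavenger receptor that IL-10 induces in macrophages, fell by 2.50 (adjusted p = 0.0109). Il1rn and Cd163 were chosen for mention after their values were seen. Many of these genes answer to LPS by other routes as well, and which route acted here was not tested.

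**Figure D4:**
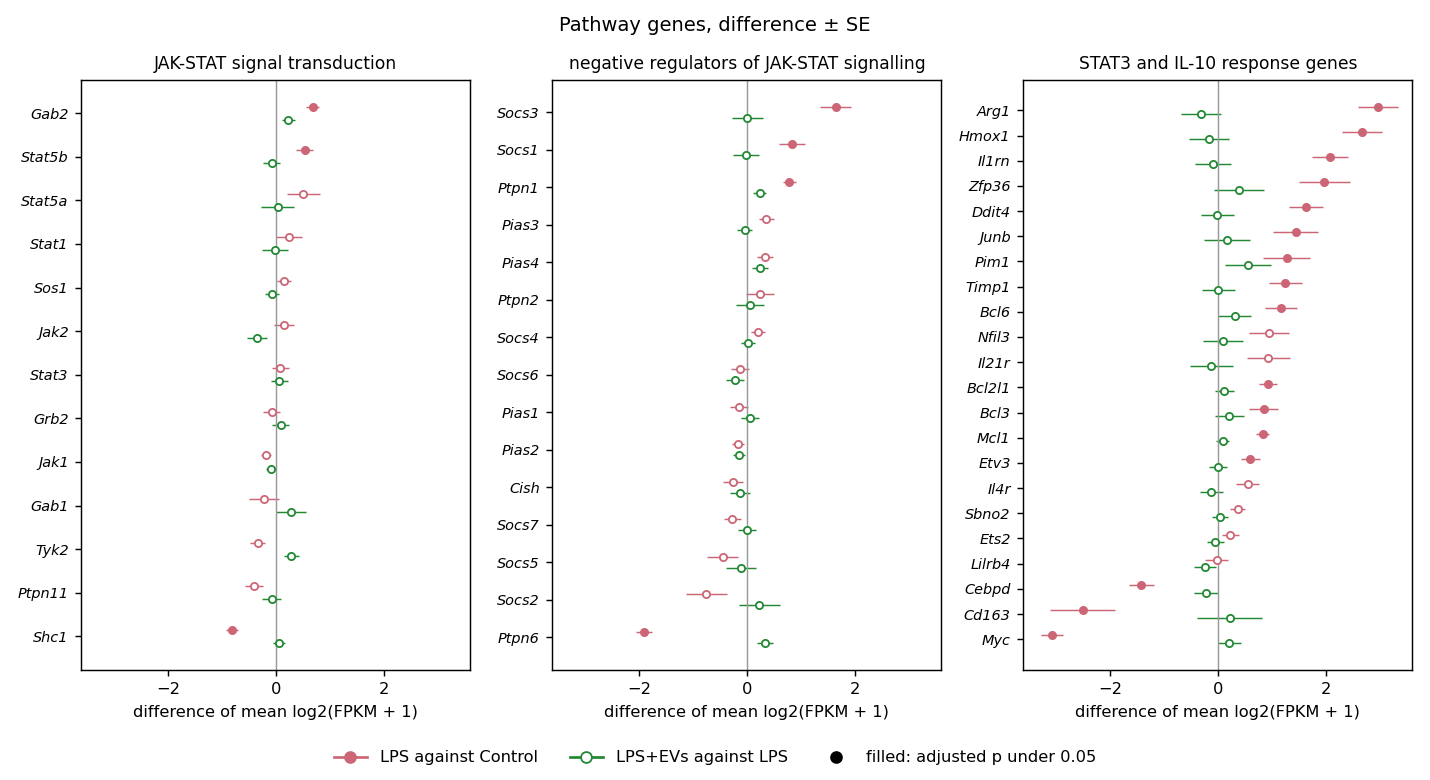
Log2 differences ± SE on the log2(FPKM + 1) scale for each of the 13 JAK-STAT genes, 15 negative regulators and 22 response genes, in LPS against Control and in LPS+EVs against LPS, filled where the adjusted p was under 0.05. Arg1 (2.97) and Myc (-3.07) mark the ends of the LPS values, and no point of LPS+EVs against LPS is filled.

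Of 7 genes for receptor shedding, which releases soluble IL-6 receptor, none passed in LPS in the main fit. With median-of-ratios or TMM scaling 1 rose, and with the replicate block 1 rose and 1 fell. Rhbdf2, also on this list, differed by 0.50 in LPS (adjusted p = 0.0574 from limma). It passed with median-of-ratios scaling (0.71, adjusted p = 0.00436) and with the block (0.0389). Adam17, the main shedding protease, differed by -0.15 (95% interval -0.47 to 0.17, adjusted p = 0.419 from limma). Adam10 fell by 0.44 in LPS+EVs against Control (adjusted p = 0.0474), which did not hold with median-of-ratios scaling (0.173) or without any of 7 libraries, all but Control replicate 2 and LPS replicate 2, left out in turn (0.0506 to 0.154).

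Of 13 regulators of cytokine mRNA decay, 2 rose and 2 fell in LPS, with a median of 0.18, beside 41% of all fitted genes called. With median-of-ratios or TMM scaling 4 rose and 2 fell. Zc3h12a, which encodes Regnase-1, a nuclease that cuts Il6 mRNA, rose from 19.8 to 78.5 and 76.3 FPKM (1.92 in LPS, adjusted p = 0.000142 from limma). Zfp36, which encodes tristetraprolin, a factor that speeds decay of cytokine mRNAs, rose from 20 to 95.1 and 114 FPKM (1.97, adjusted p = 0.0106). Its relative Zfp36l2 fell by 1.22 (adjusted p = 0.00116), and Hnrnpd, which encodes the RNA-binding protein AUF1, by 0.58 (adjusted p = 0.00457). Against Control, 2 rose and 3 fell in LPS+EVs. With the libraries numbered 1 and 3 alone the LPS counts were 5 up and 2 down.

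Of 24 transcription factors known to act on Il6 or Il10, 6 rose and 3 fell in LPS, with a median of 0.29, beside 41% of all fitted genes called. With median-of-ratios scaling 7 rose and 2 fell, with TMM scaling 7 and 3, and with the replicate block 9 and 3. Nfkbiz, a nuclear IkB protein needed for Il6 induction, rose from 7.27 to 31.1 and 24.1 FPKM (1.93, adjusted p = 0.000471 from limma). Atf3, which binds cyclic AMP response elements, rose by 2.56 (adjusted p = 0.00132), and Fosl1, an AP-1 subunit, by 2.01 (adjusted p = 0.00689). Cebpd, a C/EBP factor, fell by 1.42 (adjusted p = 0.00181). Cebpb rose by 0.68 in LPS (adjusted p = 0.0402) and by 1.08 in LPS+EVs (adjusted p = 0.00563), each against Control. The LPS values of Cebpb overlapped Control, and the adjusted p of that rise ranged from 0.00196 to 0.138 over the alternatives. Between LPS+EVs and LPS, Cebpb differed by 0.39 (adjusted p = 0.999). Against Control, 6 rose and 4 fell in LPS+EVs. Zfp36 and Cebpd also stand on the list of STAT3 and IL-10 response genes. None of the genes on these lists passed in LPS+EVs against LPS.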

How the data were processed

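RNA from 9 cultures was sequenced. Per the submitters' processing notes reads were handled with fastp, HISAT2 and HTSeq on build mRatBN7.2 and with R 3.2.0. Settings, strandedness and annotation are not given in the sources used here. The deposited table holds FPKM, a unit taken from the rule that chose the members and from the values themselves, since its header names none. Its steps gave back whole reads, within 0.002, for all 18833 genes above 0 in at least 2 libraries, and 3 reads in 1 kilobase equal 0.0761 to 0.0933 FPKM, for counting error only.

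The fit kept the 11141 genes that reached 1 FPKM in 3 or more libraries, on log2(FPKM + 1). A linear model with a group term over all 9 libraries and a variance trend was run in limma 3.58.1 (R 4.3.3). P-values are two-sided, adjusted by Benjamini-Hochberg over all genes in a comparison, with a threshold of 0.05. Il19, below that filter, was compared by exact permutation. Named genes are the 9 members, up to 4 passing genes per list and comparison with the smallest adjusted p, and the 3 genes most correlated with each member. Other named genes are examples given with their values. The members and lists were chosen with earlier results of these data known.

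Replicates differed by more than counting noise (chi-square per degree of freedom 42.8 to 310). After group means were removed, same-numbered libraries correlated at 0.28 to 0.86 in all 9 cross-group pairs and other pairs at -0.74 to 0.43, so the numbers were taken to pair libraries, on the data's evidence alone. Alternatives were 2 scalings, 2 filters, an added value of 0.1, limma-voom on recovered reads, the 6 compared libraries alone, a replicate block with and without scaling, leaving out each library, and, chosen after seeing the data, libraries numbered 1 and 3 alone. The fit was tested on simulated data. Python 3.11.15 with pandas 2.3.3 and scipy 1.17.1 was used for reading and exact tests.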

Additional observations from a re-analysis of the deposited data

How the results depend on the processing

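With each library left out in turn, 2775 to 4526 genes passed in LPS against Control (4569 with all 9), 0 to 1 in LPS+EVs against LPS and 3239 to 5776 in LPS+EVs against Control (4941 with all 9). The low counts for LPS came without Control replicate 1 (2775) and Control replicate 3 (3006); the 1 gene, LOC120098595, came without LPS replicate 2 (log2 difference 1.74, adjusted p = 0.0411). Members called ranged from 6 to 7, from 0 to 0 and from 6 to 7. With the replicate block as pairing, 5862, 0 and 6146 genes and 7, 0 and 7 members passed in the 3 comparisons; the block changed no member's call other than that of Il6r in LPS+EVs against Control. Libraries numbered 1 and 3 alone, chosen after seeing the data, gave 8, 0 and 6 members and 4607, 0 and 4978 of 10691 genes. Leaving out a library turned the sign of differences that had not passed: Osm (-0.15 to 0.33), Il6r (-0.08 to 0.31), Il10 (-0.74 to 0.08) and Il10rb (-0.08 to 0.09) in LPS+EVs against LPS, and Il6st (-0.35 to 0.91) in LPS against Control. The cause was not tested. Of the members' values under all alternatives, 433 kept direction and side of the threshold, 6 lost a call, 5 gained 1 and 9 turned. The filter of 5 FPKM leaves out Il10. Depth limits Il19, and Il10 in Control.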
